A study of Mus musculus with 9 samples.

Results

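The genes described are the 4 interferon receptor chains (Ifnar1, Ifnar2, Ifngr1 and Ifngr2), the 3 kinases bound to those chains (Jak1, Jak2 and Tyk2) and 3 suppressors of cytokine signalling (Socs1, Socs2 and Socs3). They were taken by gene symbol from a table of 53796 genes, and all 10 averaged 1 FPKM or more, a level reached by 12212 genes in all. FPKM, the deposited unit, counts fragments per kilobase of a transcript, scaled by the library's number of fragments. RNA was sequenced from CT26, a mouse colorectal carcinoma cell line, in 3 groups of 3 samples. Every group carried the Pd-l1 knockout and a retroviral vector and was selected with puromycin into a stable polyclonal line. KO cells received a control vector, WT cells received wild-type mouse Pd-l1, and K262Q cells received Pd-l1 with a lysine replaced by glutamine (K262Q). The labels name no interferon or other cytokine treatment, and whether the knockout line was a single clone is not stated in them. Nothing in the labels tells whether replicates were grown as separate cultures, so the p-values speak only for the variation among these libraries, and part of it may be technical.

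Interferons signal through paired receptor chains at the cell surface. IFNAR1, held by TYK2, and IFNAR2, held by JAK1, form the receptor for interferon alpha and beta, while IFNGR1, held by JAK1, and IFNGR2, held by JAK2, form the receptor for interferon gamma. The kinases phosphorylate the receptor tails and the STAT transcription factors, which then switch on interferon-induced genes, Pd-l1 (gene symbol Cd274) among them. SOCS proteins are made in response to the same signals and close the loop: SOCS1 and SOCS3 block JAK kinase activity directly, and SOCS2 is best known as a brake on growth hormone signalling through STAT5. All SOCS proteins carry a SOCS box, which recruits a ubiquitin ligase. Tumour cells that lose this pathway no longer respond to the interferon gamma that T cells release.

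Upstream sequence is shown for Socs1, the member with the clearest rise, and for Socs3, a relative that did not pass the test in any comparison. Both windows come from RefSeq (GRCm38.p6); each holds 300 bases around the annotated start, and they lie on the minus strand. The RefSeq start of Socs3 lies inside the longer GENCODE gene given below. Socs1 is at chr16:10785487-10785786 and Socs3 at chr11:117969317-117969616. Capitals mark matches to the interferon-stimulated response element (GAAA, any 2 bases, GAAA) in Socs1 and to the STAT element (TTCNNNGAA) in Socs3.
Socs1: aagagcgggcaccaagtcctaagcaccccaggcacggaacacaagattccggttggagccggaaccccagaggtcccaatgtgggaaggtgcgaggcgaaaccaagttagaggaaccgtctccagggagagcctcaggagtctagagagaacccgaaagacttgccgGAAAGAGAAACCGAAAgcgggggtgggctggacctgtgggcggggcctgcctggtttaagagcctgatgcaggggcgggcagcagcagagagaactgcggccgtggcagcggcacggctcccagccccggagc
Socs3: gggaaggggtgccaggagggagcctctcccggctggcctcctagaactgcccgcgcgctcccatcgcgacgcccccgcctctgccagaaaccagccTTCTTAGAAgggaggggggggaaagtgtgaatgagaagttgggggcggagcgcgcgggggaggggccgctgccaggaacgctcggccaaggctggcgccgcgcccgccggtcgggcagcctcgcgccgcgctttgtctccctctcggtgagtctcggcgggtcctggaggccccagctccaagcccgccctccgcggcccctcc
The Socs1 window held 2 overlapping response element matches, GAAAGAGAAA at bases -83 to -74 and GAAACCGAAA at bases -77 to -68 from the start. On both strands, this element was found in 3.44% of 32851 promoter windows of the same length. The Socs3 window held TTCTTAGAA at bases -154 to -146, and 8.30% of windows held this STAT element. Of the 9 members with a window in the table, Ifnar1 (bases -5 to 4) and Ifnar2 (bases -214 to -206) also held the STAT element. Ifngr2 held a match to the form with 1 more spacer base, found in 6.95% of windows. No match to these 3 motifs was found in the windows of Ifngr1, Jak1, Jak2 and Tyk2. Socs2 was not among the 9. A match is a description of letters, and binding was not measured.

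The labels were first checked on the targeted gene and on marker genes. Cd274 stood at 0.982, 0.357 and 0.791 FPKM in KO (replicates in the order 1, 2, 3, as everywhere below). WT libraries held 35.6, 35.4 and 38.0 FPKM of it and K262Q libraries 37.6, 41.3 and 40.1 FPKM. Of 8 carcinoma and mesenchymal markers, 4 were tested. Vim (2867 to 3337 FPKM) and S100a4 were high and Krt18 lay between 26.1 and 35.7 FPKM, whereas Cdh1 was listed at 0 in every library and Krt8, Krt19 and Epcam stayed at or below 0.286 FPKM, so the defining epithelial markers other than Krt18 were absent or near 0. Among the mesenchymal markers Fn1, which encodes fibronectin, fell in K262Q against WT (-0.58 ± 0.08 on the log2 scale, SE, limma, adjusted p = 0.0160). It also fell against KO (-0.53, limma, adjusted p = 0.0373), as did Krt18 (-0.36, limma, adjusted p = 0.0360). Vim (0.04 ± 0.06) and S100a4 (0.30 ± 0.09) lay above 0 in K262Q against WT and did not pass (limma, adjusted p = 0.742 and 0.0786). Against KO they were at 0.02 and 0.22. Over all genes tested 3.02% were called lower in K262Q against WT and 0.540% in K262Q against KO. The part of these markers in the results below was not tested. The summed level of 8 leukocyte markers ran from 2.13 to 4.55 FPKM in the KO libraries, from 2.41 to 3.55 in the WT libraries and from 2.99 to 3.30 in the K262Q libraries, nearly all of it Cd68, with Adgre1 at 0. The 4 endothelial markers summed to 0.0602 FPKM or less. Fewer cells of a type and less RNA per cell cannot be told apart in such bulk samples. The spacing of low values implied a depth of 17.4 M to 18.4 M fragments per library (M, mega).

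In these cells Jak1, Jak2 and the receptor chains for interferon alpha and beta were the best expressed members. Jak1 had the highest mean over the 9 libraries, 26.7 FPKM, at percentile 67.1 of the genes tested. Jak2 followed at 18.6 FPKM, Ifnar2 at 16.7, Ifnar1 at 13.5 and then, with ranges that overlapped, Ifngr2 at 8.72, Ifngr1 at 8.32 and Socs2 at 8.31 FPKM. Socs3 (6.08 FPKM), Tyk2 (5.47 FPKM) and Socs1 (3.997 FPKM, percentile 19.9) were lowest. Jak1 lay above Jak2 in all 9 libraries without overlap of their ranges, and Ifnar1 lay above Ifngr2 in the same way. The ranges of every other pair of neighbours in this order overlapped, although Jak2 exceeded Ifnar2, Ifnar2 exceeded Ifnar1 and Tyk2 exceeded Socs1 in 9 of 9 libraries. Jak2 was the steadiest member, with a highest library 1.12 times the lowest, and Socs2 the most variable, at 2.90 times.

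**Figure D1:**
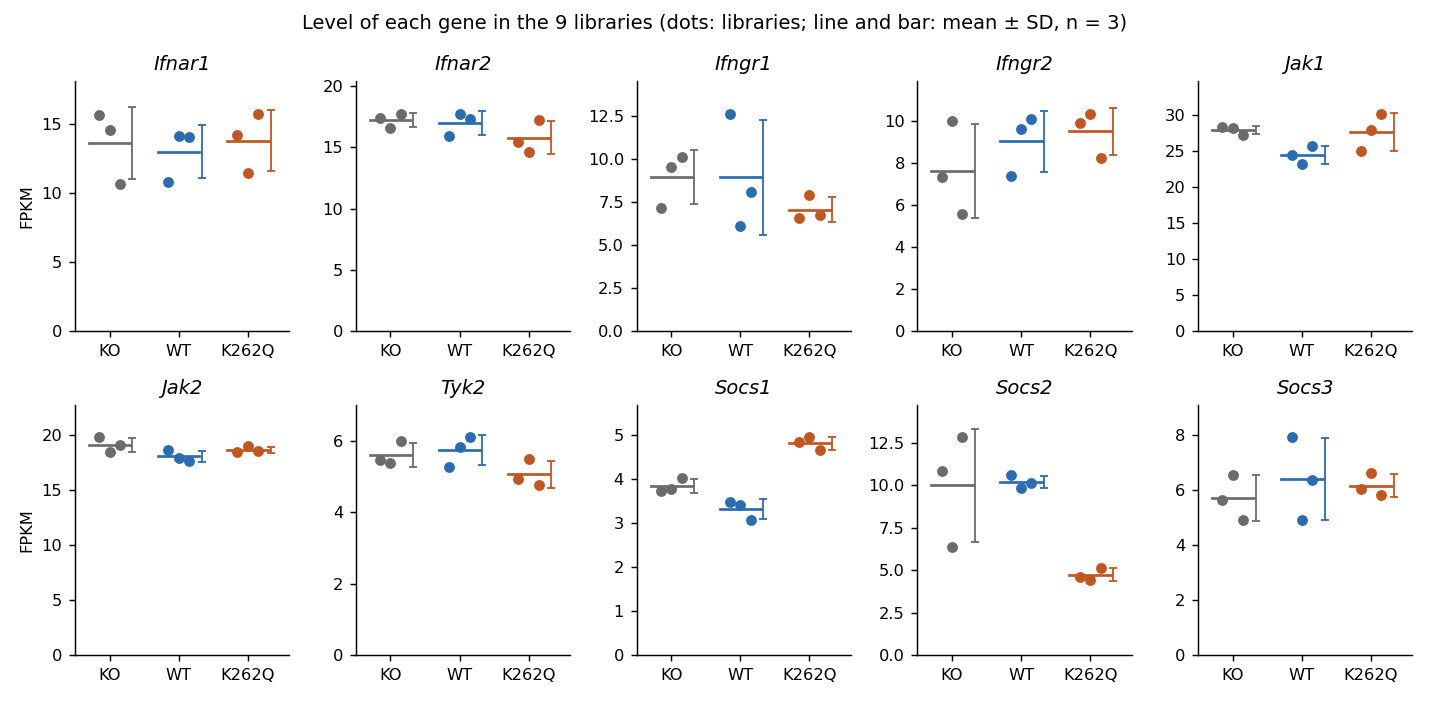
FPKM of each of the 10 genes (vertical axes, each from 0) in the 3 KO, 3 WT and 3 K262Q libraries; dots are libraries, horizontal lines are group means and bars are SD (n = 3). The K262Q libraries lie above all others for Socs1 (4.66 to 4.95 FPKM) and below all others for Socs2 (4.43 to 5.14 FPKM), and the groups overlap for the receptor chains.

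K262Q against WT compares the mutant and wild-type rescues, which held like amounts of Cd274 transcript, and the members called were both SOCS genes. Construct and line go together in every comparison, so an effect of the construct cannot be told apart from other differences between the lines. Socs1 rose and Socs2 fell in K262Q, while Socs3, the 4 receptor chains and the 3 kinases did not pass the test. The test was limma on log2(FPKM + 1) with Benjamini-Hochberg adjustment over 12212 genes, and a call is an adjusted p under 0.05. Of the 10 members 1 was called higher and 1 lower, where 6.35% of all genes tested were called higher and 3.02% lower (9.38% in either direction). Of those 1145 calls 67.8% were higher, a share that was 43.4% of 931 after upper-quartile scaling and 57.2% of 1063 after TMM scaling. The median difference of the members was 0.01 on the log2 scale, beside 0.03 over all genes tested. The groups did not overlap in 2 of the 10, Socs1 and Socs2, against 35.4% of all genes tested (22.0% higher and 13.4% lower).

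Socs1, the inhibitor that binds JAK1, JAK2 and TYK2 and blocks their catalytic site, lies on chromosome 16 (10782240 to 10785536, minus strand, GRCm38; ENSMUSG00000038037). It stood at 3.48, 3.42 and 3.07 FPKM in WT against 4.85, 4.95 and 4.66 FPKM in K262Q. The KO libraries, at 3.72, 3.78 and 4.04 FPKM, lay between those groups, with no overlap on either side. In K262Q against WT the mean rose from 3.32 ± 0.220 to 4.82 ± 0.148 FPKM (SD, n = 3), a ratio of 1.45. On the log2(FPKM + 1) scale this was 0.43 ± 0.07 (SE, limma, adjusted p = 0.0193, 95% interval 0.27 to 0.59), or 1.35-fold. These levels rest on roughly 161 to 251 fragments per library, counted on the longest transcript of 2908 nt.

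Socs2, the SOCS protein named above for growth hormone signalling, lies on chromosome 10 (95385362 to 95417180, minus strand; ENSMUSG00000020027). It stood at 10.6, 9.83 and 10.2 FPKM in WT against 4.62, 4.43 and 5.14 FPKM in K262Q. The 3 KO libraries, at 10.8, 6.33 and 12.8 FPKM, spread more widely than either rescue, with KO replicate 2 lowest and still above every K262Q library. In K262Q against WT the mean fell from 10.2 ± 0.375 to 4.73 ± 0.369 FPKM (SD, n = 3), so that WT held 2.15 times the K262Q level. The log2 difference was -0.97 ± 0.21 (SE, limma, adjusted p = 0.0338, 95% interval -1.45 to -0.49), or 1.96-fold lower on the FPKM + 1 scale. Socs1 and Socs2 moved in opposite directions, and the ratio of Socs2 to Socs1 FPKM was 3.04, 2.88 and 3.31 in WT against 0.952, 0.894 and 1.10 in K262Q. In KO it was 2.91, 1.68 and 3.18.

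The calls of Socs1 and Socs2 were close to the threshold. Leaving out 1 library at a time, Socs1 kept its call in 5 of 9 fits and lost it without WT replicate 1 or 2 or K262Q replicate 2 or 3 (adjusted p from 0.0140 to 0.0706 over the 9 fits, limma, differences 0.39 to 0.46). Socs2 kept it in 2 of 9, those without KO replicate 2 or 3 (adjusted p from 0.00422 to 0.108, differences -1.02 to -0.93). Without the filter on low genes, which raises the number of genes tested to 27379, both lost it (adjusted p = 0.0569 for Socs1 and 0.0781 for Socs2, limma).

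**Figure D2:**
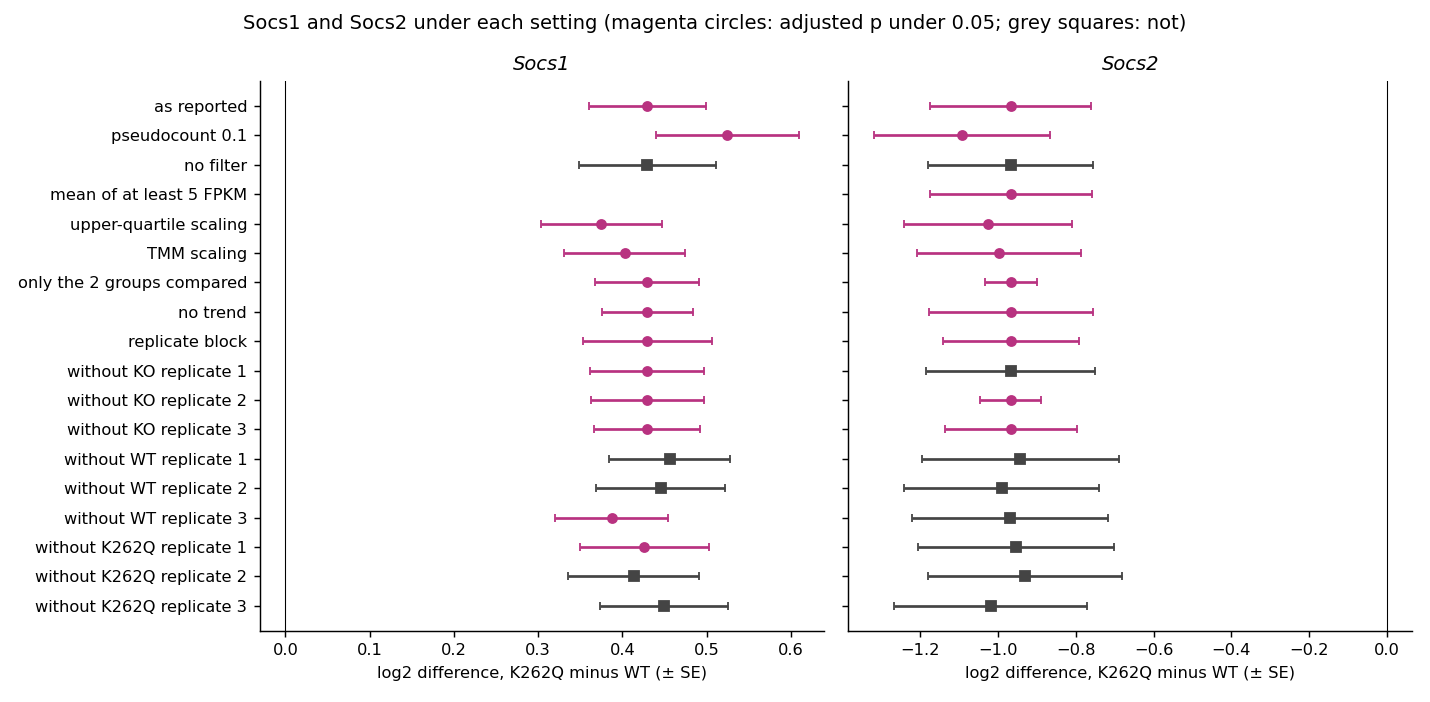
Log2 difference of FPKM + 1 between K262Q and WT (horizontal axis, bars are SE) for Socs1 and Socs2 under the reported fit and each alternative listed on the vertical axis; magenta circles have an adjusted p under 0.05 and grey squares do not. The Socs1 differences lie between 0.38 and 0.52 and the Socs2 differences between -1.09 and -0.93, all on the side of 0 of the reported fit, and Socs1 has no value at a mean of at least 5 FPKM, which it does not reach.

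Socs3, the inhibitor that acts mainly on gp130 cytokine receptors such as that for interleukin 6, stood at 7.91, 4.92 and 6.35 FPKM in WT against 6.03, 6.61 and 5.81 FPKM in K262Q. The WT libraries alone spanned the whole K262Q range, and the difference was -0.03 ± 0.15 on the log2 scale (SE, limma, adjusted p = 0.933, 95% interval -0.39 to 0.33). Its gene lies on chromosome 11 (117966079 to 117970047, minus strand; ENSMUSG00000053113).

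Among the receptor chains, Ifnar2, the high-affinity binding chain for interferon alpha and beta, stood at 15.9, 17.7 and 17.3 FPKM in WT against 15.4, 14.6 and 17.3 FPKM in K262Q. Its difference was -0.10 ± 0.07 on the log2 scale (SE, limma, adjusted p = 0.378). Its partner chain Ifnar1 stood at 10.8, 14.1 and 14.0 FPKM in WT against 14.2, 11.4 and 15.7 FPKM in K262Q, with a difference of 0.08 ± 0.17 (adjusted p = 0.812). For both chains the groups overlapped.

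Ifngr1, the chain that binds interferon gamma, stood at 12.6, 6.11 and 8.11 FPKM in WT against 6.55, 7.91 and 6.73 FPKM in K262Q. WT replicate 1 held the highest value of all 9 libraries and WT replicate 2 the lowest, so that the K262Q range lay inside that of WT. The difference was -0.25 ± 0.23 (SE, limma, adjusted p = 0.516), and it was -0.0014 without WT replicate 1 and -0.47 without WT replicate 2. Ifngr2, the chain that brings in JAK2, stood at 7.38, 9.63 and 10.1 FPKM in WT against 9.91, 10.3 and 8.25 FPKM in K262Q, a difference of 0.07 ± 0.19 (adjusted p = 0.852). Intervals at 95% for these 4 chains ran from -0.79 at the lowest to 0.52 at the highest, the width being set by the 2 interferon gamma chains.

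Of the 10 members Jak2 had the smallest SE. Jak2, used by the interferon gamma receptor and by growth hormone and other cytokine receptors, stood at 18.6, 17.9 and 17.6 FPKM in WT against 18.5, 19.0 and 18.5 FPKM in K262Q. The difference was 0.05 ± 0.04 on the log2 scale (SE, limma, adjusted p = 0.527, 95% interval -0.05 to 0.14). Jak1, shared by both interferon receptors, stood at 24.5, 23.2 and 25.7 FPKM in WT against 25.0, 27.9 and 30.2 FPKM in K262Q. Only the lowest K262Q library fell inside the WT range, and the difference of 0.17 ± 0.07 had an unadjusted p of 0.0443 (limma) and an adjusted p of 0.166. Tyk2, the kinase of IFNAR1, stood at 5.28, 5.83 and 6.10 FPKM in WT against 4.93, 5.49 and 4.77 FPKM in K262Q, a difference of -0.15 ± 0.08 (limma, adjusted p = 0.242).

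**Figure D3:**
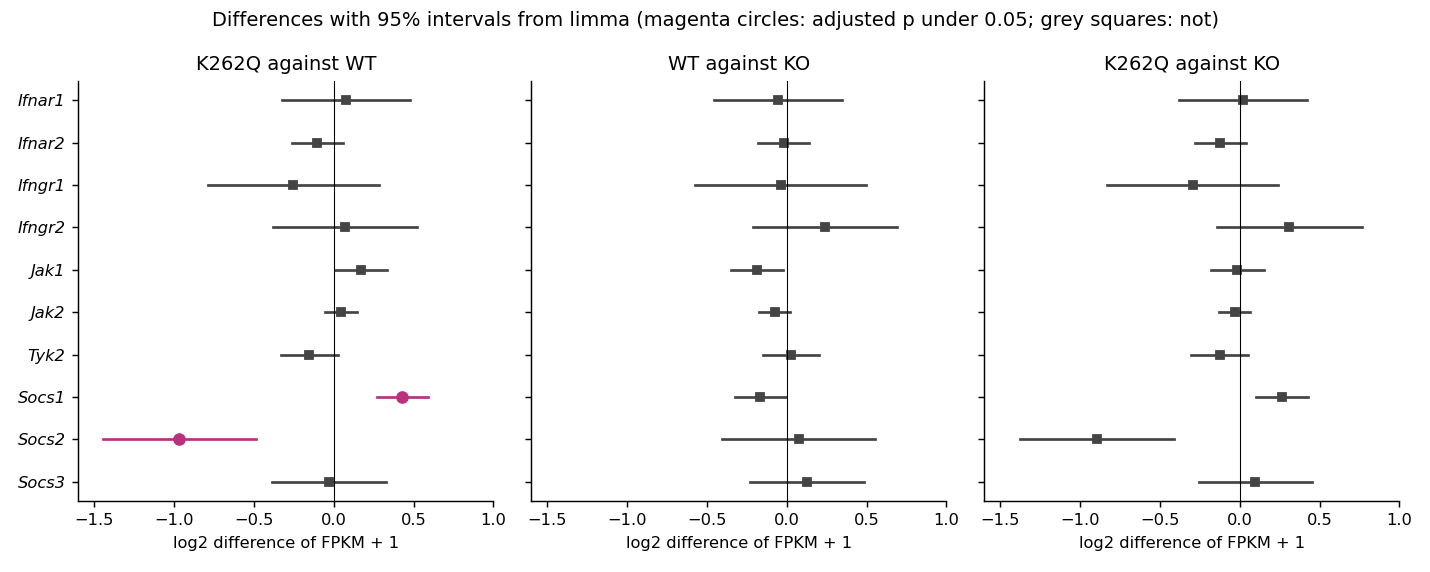
Log2 difference of FPKM + 1 (horizontal axes) with 95% intervals from limma for the 10 genes in the 3 comparisons; magenta circles have an adjusted p under 0.05 and grey squares do not. Calls appear only for Socs1 (0.43) and Socs2 (-0.97) in K262Q against WT, and the intervals of Jak2 are the narrowest.

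WT against KO compares the line given wild-type Pd-l1 with the line given the control vector, and no member was called. Over all genes tested 0.0819% were called (0.0491% higher and 0.0328% lower), and 2 of the 10 members had an unadjusted p under 0.05 (limma), where 5.62% of all genes did. Those were Jak1 and Socs1, and they were also the 2 members whose groups did not overlap, against 9.23% of all genes (2.75% higher and 6.48% lower). Jak1 measured 28.3, 28.2 and 27.3 FPKM in KO, above all 3 WT libraries, with a difference of -0.19 ± 0.07 on the log2 scale (SE, limma, adjusted p = 0.859). Socs1 lay lower in WT than in KO by -0.16 ± 0.07 (limma, adjusted p = 0.885). Socs2 differed by 0.07 ± 0.21 (limma, adjusted p = 0.988), and this value changed sign without KO replicate 2 (-0.19). Socs3 measured 5.63, 6.56 and 4.92 FPKM in KO, inside the WT range, a difference of 0.13 ± 0.15 (limma, adjusted p = 0.935).

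The receptor chains and the other kinases also overlapped between WT and KO. Ifnar1 measured 15.7, 14.5 and 10.7 FPKM and Ifnar2 17.4, 16.6 and 17.7 FPKM in KO. Ifngr1 measured 7.17, 9.56 and 10.1 FPKM and Ifngr2 7.33, 9.99 and 5.56 FPKM in KO. The difference of Ifngr2 was 0.24 ± 0.19 on the log2 scale (SE, limma, adjusted p = 0.906), and it was 0.057 without KO replicate 3, 0.43 without KO replicate 2 and 0.36 without WT replicate 1. Jak2 measured 19.8, 18.4 and 19.1 FPKM and Tyk2 5.47, 5.37 and 5.99 FPKM in KO, with differences of -0.08 ± 0.04 and 0.03 ± 0.08 (limma, adjusted p = 0.885 and 0.988).

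K262Q against KO compares the mutant line with the line without Pd-l1. Again 0 of the 10 members were called (limma), beside 1.26% of all genes tested (0.721% higher and 0.540% lower). Of those 154 calls 57.1% were higher, against 43.6% of 234 after upper-quartile scaling and 59.3% of 297 after TMM scaling. By unadjusted p under 0.05 there were 2, Socs1 and Socs2, against 22.0% of all genes. K262Q libraries are shared with the comparison against WT, so the values below are not a second, separate measurement of the mutant. Socs2 was lower in all 3 K262Q libraries than in any KO library, with a difference of -0.89 ± 0.21 on the log2 scale (SE, limma, adjusted p = 0.0737). Without KO replicate 2 it was -1.16 and passed the test (limma, adjusted p = 0.00435), while the count over all genes went from 154 to 1117. Socs1 was higher in all 3 K262Q libraries than in any KO library, 0.26 ± 0.07 (limma, adjusted p = 0.0899). Groups that do not overlap were found for these 2 members, and for 26.9% of all genes tested (15.0% higher and 11.9% lower). The other 8 members had differences between -0.29 (Ifngr1) and 0.31 (Ifngr2) with 95% intervals within -0.83 and 0.76.

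The genomic surroundings of the members were looked at in GRCm38 because Jak2 is a neighbour of the knocked-out gene. Every group carries the knockout, so comparing the groups cannot show what the edit itself did to its neighbours. Jak2 (chromosome 19, 29251828 to 29313080) ends 54.4 kb before Cd274 (29367455 to 29388095) on the same strand. Of the 15 genes whose locus starts within 300 kb of Jak2, 7 had a mean of at least 1 FPKM. While Cd274 stayed below 1 FPKM in KO, Jak2 was at 18.4 to 19.8 FPKM there and at 17.6 to 19.0 FPKM in the rescues. The rescues received Pd-l1 on a retroviral vector, so their Cd274 level does not describe the chromosome 19 locus. Plgrkt, a plasminogen receptor gene between Jak2 and Cd274, measured 30.9 to 35.1 FPKM in KO and 32.4 to 36.9 FPKM in the rescues. Pdcd1lg2, which encodes the other PD-1 ligand, was listed at 0 in every library. In K262Q against WT, Rcl1, a ribosomal RNA processing gene, rose by 0.26 ± 0.06 (SE, limma, adjusted p = 0.0396) and Ric1, a Golgi trafficking gene, fell by 0.38 ± 0.08 on the log2 scale (adjusted p = 0.0338). Jak2, which lies between these genes, did not pass. Over all genes tested 9.38% were called in K262Q against WT (6.35% higher and 3.02% lower).

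**Figure D4:**
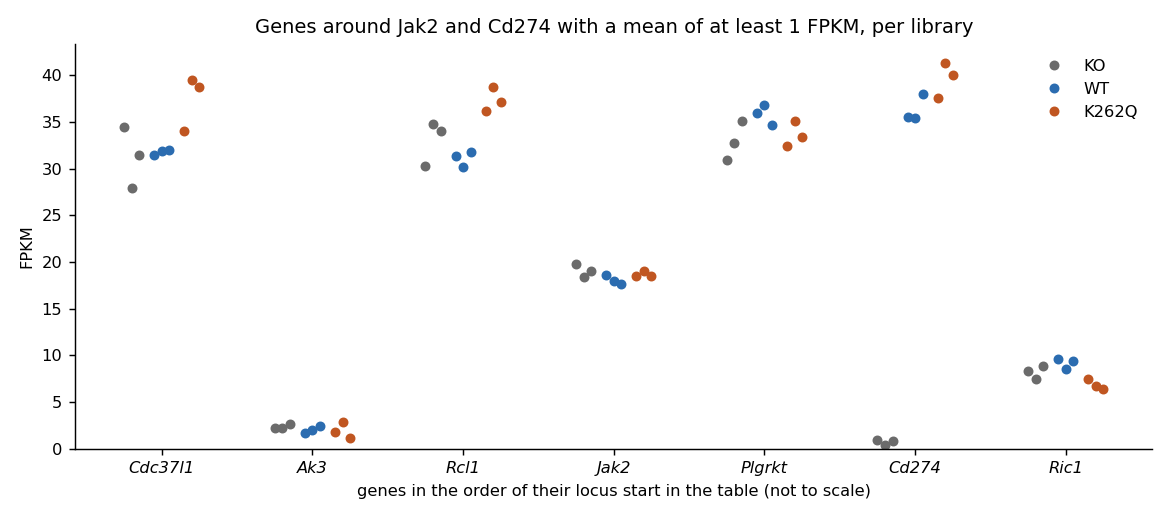
FPKM per library (vertical axis) of the 7 genes averaging 1 FPKM or more whose locus starts within 300 kb of Jak2, ordered by locus start as the table gives it; dots are KO, WT and K262Q libraries. Cd274 separates KO (0.357 to 0.982 FPKM) from both rescues, which received it on a retroviral vector, and Jak2 lies between 17.6 and 19.8 FPKM in all 9 libraries.

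Ifnar2, Ifnar1 and Ifngr2 lie together on chromosome 16, with Il10rb, a shared chain of the interleukin 10 and interferon lambda receptors, in an interval of 192.4 kb that holds 9 genes of the table. Of these, 5 had a mean of at least 1 FPKM and none was called in any comparison. Over all genes tested 9.38% were called in K262Q against WT, 0.0819% in WT against KO and 1.26% in K262Q against KO. Il10rb was steady, at 5.47 to 6.53 FPKM over the 9 libraries, with a difference of 0.01 ± 0.07 in K262Q against WT (limma, adjusted p = 0.970). Ifnar2 spans 91372783 to 91405589, Ifnar1 91485238 to 91507441 and Ifngr2 91547072 to 91565623, all on the plus strand, and Gm21970, a model at a mean of 1.12 FPKM, overlaps Ifnar2 on the same strand, so that reads of these 2 may be split. The deposited values list Ifnar2 under a wider locus, 91372783 to 91425834, which Il10rb and Gm21970 share. Ifngr1 lies apart on chromosome 10 (19591949 to 19610229), Jak1 on chromosome 4 (101152367 to 101265282) and Tyk2 on chromosome 9 (21104068 to 21131243). The deposited loci of Jak1 and Tyk2 are wider too, beginning at 101068983 and 21062393. Jak1 and Tyk2 each overlap a transcript on the opposite strand, Raver2 and 1700084C06Rik, whose means were 0.0203 and 0.104 FPKM. The strand setting of the counting is not given in the sources used here.

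The rest of the pathway was taken from lists of its parts. Of 10 interferon genes, 8 were listed at 0 in every library, and Ifnb1 (at most 0.180 FPKM) and Ifne (at most 0.111 FPKM) were the others. Among 23 other receptor chains that use JAK kinases, 8 were tested. In K262Q against WT 1 of these fell, Il6ra, the interleukin 6 binding chain, and 7 did not pass, where 3.02% of all genes tested were called lower. In the other comparisons 0 of the 8 passed (limma), with an unadjusted p under 0.05 for 0 in WT against KO and 2 in K262Q against KO (5.62% and 22.0% of all genes). Il6ra stood at 6.13, 5.23 and 5.71 FPKM in WT against 4.21, 3.96 and 4.29 FPKM in K262Q, without overlap (-0.37 ± 0.07 on the log2 scale, limma, adjusted p = 0.0281). Ghr, the growth hormone receptor whose signal SOCS2 restrains, measured 18.3 to 21.9 FPKM over the 9 libraries and did not pass in any comparison.

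Jak3, the kinase of the common gamma chain, measured 4.39 to 5.58 FPKM, and Cish, the SOCS relative named CIS, stayed below 0.3 FPKM. Socs5 (19.7 to 22.1 FPKM) and Socs4 (10.01 to 13.7 FPKM) exceeded Socs1, Socs2 and Socs3 in mean level, as did Socs6 (10.2 to 14.3 FPKM), while Socs7 measured 5.33 to 8.18 FPKM. Of the list of other SOCS proteins and their ubiquitin ligase partners, 0 of 8 tested genes passed in each of the 3 comparisons (limma), and 1 in each had an unadjusted p under 0.05, beside 27.9% of all genes in K262Q against WT, 5.62% in WT against KO and 22.0% in K262Q against KO. The same held for 11 other inhibitors of JAK-STAT signalling, Usp18 and Ptpn2 among them, of which 3 had an unadjusted p under 0.05 in K262Q against WT, 0 in WT against KO and 2 in K262Q against KO, beside 27.9%, 5.62% and 22.0% of all genes. In this last list Ptpn6, the phosphatase SHP-1, had the largest difference in K262Q against WT, -0.77 ± 0.30 (limma, adjusted p = 0.146), and is named after its values were seen. Ptpn6 stood at 26.4, 27.9 and 52.4 FPKM in WT, with replicate 3 far above the others. It stood at 23.4, 17.8 and 17.4 FPKM in K262Q and at 41.9, 47.8 and 26.4 FPKM in KO.

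Downstream, 0 of 11 tested STAT and IRF genes passed in any comparison (limma), while 3 had an unadjusted p under 0.05 in K262Q against WT (27.9% of all genes did), 0 in WT against KO (5.62%) and 4 in K262Q against KO (22.0%). The median difference of this list in K262Q against WT was -0.15 on the log2 scale, beside 0.03 over all genes tested. Of 30 interferon-induced genes 28 were tested, and 4 fell, 0 rose and 24 did not pass in K262Q against WT, where 3.02% of all genes tested were called lower and 6.35% higher. The list's median was -0.30. The genes that fell were the immunoproteasome subunit Psmb8 (1.43-fold), the ISG15-activating enzyme Uba7 (1.69-fold), the antiviral protein Ifit3 (1.63-fold, adjusted p = 0.0468) and Xaf1 (1.37-fold, adjusted p = 0.0469), the last being outside the naming rule. Differences were below 0 in 27 of the 28, Irgm1 being the exception, while 6838 of all 12212 genes tested lay above 0. In WT against KO 0 of the 28 passed, with a median of 0.07 beside -0.02 over all genes, and in K262Q against KO 0 passed, with a median of -0.22 beside 0.01. By unadjusted p under 0.05 (limma) WT against KO held 1 of the 28, K262Q against KO 11 and K262Q against WT 14, beside 5.62%, 22.0% and 27.9% of all genes.

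Of 10 genes induced through STAT3 or STAT5, 7 were tested, and in K262Q against WT 1 fell, 0 rose and 6 did not pass, beside 3.02% of all genes called lower. The one that fell was Bcl6, a transcriptional repressor, which stood at 8.19, 9.29 and 8.45 FPKM in WT against 5.56, 6.23 and 5.69 FPKM in K262Q (-0.50 ± 0.12 on the log2 scale, limma, adjusted p = 0.0417). Its KO values were 8.69, 6.32 and 8.75 FPKM, the lowest being KO replicate 2, as for Socs2. None of the 7 passed in the other 2 comparisons (limma), where 0 in WT against KO and 2 in K262Q against KO had an unadjusted p under 0.05 (5.62% and 22.0% of all genes).

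**Figure D5:**
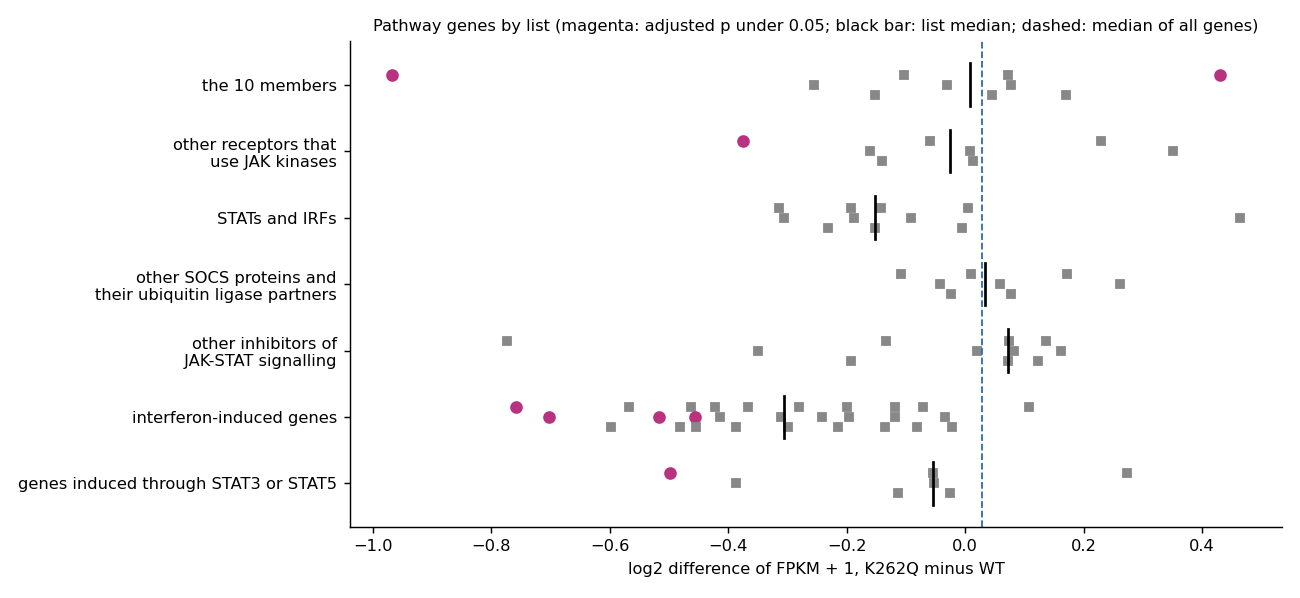
Log2 difference of FPKM + 1 between K262Q and WT (horizontal axis) for each tested gene of the 10 members and of 6 pathway lists (rows); magenta circles have an adjusted p under 0.05, black bars are list medians and the dashed line is the median of all genes tested (0.03). The members spread to both sides of 0 with Socs2 at -0.97 and Socs1 at 0.43, while 27 of 28 interferon-induced genes lie below 0. Over all genes tested, 6838 of 12212 lie above 0.

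The genes most like Socs1 and Socs2 over the 9 libraries were found by the root mean square difference of log2(FPKM + 1), after subtracting each gene's mean, among genes averaging 5 FPKM or more. For Socs2 these were Tmem74 (0.08), Zfp420 (0.09) and Dhrs9 (0.09), where Socs2 itself varied by 0.50 about its mean. Tmem74 measured 12.0, 7.42 and 15.1 FPKM in KO, 13.7, 11.8 and 12.7 FPKM in WT, but 6.09, 6.12 and 6.75 FPKM in K262Q, so that KO replicate 2 was low in it as well. For Socs1 they were Spryd4, Nup85 and Ddx24 (each 0.06, with Socs1 varying by 0.18). Nup85, a nuclear pore component, measured 65.7, 74.2 and 77.0 FPKM in KO, 67.9, 67.5 and 66.1 FPKM in WT, but 87.5, 88.5 and 87.7 FPKM in K262Q. These 9 libraries share their groups, and 9282 genes were searched for Socs1 and 9281 for Socs2, so the likeness is a description.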

How the data were processed

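Per the submitters' processing notes, STAR 2.5.4a and Cufflinks 2.2.1 with Cuffdiff were used on build mm10; the role of each tool, the annotation and the strand setting are not given in the sources used here. The authors deposited 1 table with 1 FPKM value per gene and library, all 9 columns of which were used. From these values, limma 3.58.1 in R 4.3.3 was fitted on log2(FPKM + 1) with 1 term per group, all 9 libraries together, eBayes with trend, two-sided tests and Benjamini-Hochberg adjustment over the 12212 genes averaging 1 FPKM or more, at a threshold of 0.05. A fold change on this scale understates that of low genes. Errors are SD for FPKM and SE for differences. For 3 samples against 3, the smallest exact two-sided permutation p is 0.1. The fit was run on simulated data with known changes, in which each value varied independently. That run cannot show how calls depend on single libraries, which is given below.

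The members and lists were chosen with earlier results of these data known. Named genes were the 10 members, Cd274, relatives of the members, up to 3 called genes of each list, genes near Jak2 and Ifnar2, and the 3 genes most like each called member; exceptions are stated. All list symbols were found in the table. Positions are from GENCODE M21 (GRCm38) and promoters from RefSeq (GRCm38.p6), where 9 of 10 members matched. Depth was estimated from 8908 low genes with 1 transcript, where 66.3% of low values lay within 0.1 of a whole number of fragments and an even spread would give 20.0%. The depth was searched within a preset range and set on these same genes, so this is no independent check; a counting error from it covers counting only. Tables were made with Python 3.11.15, pandas 2.3.3 and numpy 2.4.6 and figures with matplotlib 3.10.9.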

Additional observations from a re-analysis of the deposited data

How the results depend on the processing

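Other settings changed the sign of few differences of single members, while the calls of Socs1 and Socs2 were often lost. Over 30 differences (10 members, 3 comparisons) and 507 refits, 471 kept direction and side of the threshold. A call was lost in 13 (Socs1 and Socs2 in K262Q against WT), 1 gained one (Socs2 in K262Q against KO) and 22 changed sign, none of these being called. Only a called difference can lose a call. Socs1 lost its call in 5 of 16 refits and Socs2 in 8 of 17. Sign changes under other settings were Jak2 in K262Q against WT after upper-quartile scaling (-0.019), Ifnar2 in WT against KO after upper-quartile (0.0078) and TMM scaling (0.0019), and Ifnar1 in K262Q against KO after upper-quartile scaling (-0.014). Leaving out 1 library at a time changed the sign of these differences, given as lowest and highest. In K262Q against WT they were Ifnar1 (-0.041 to 0.20), Ifngr2 (-0.053 to 0.16) and Socs3 (-0.18 to 0.11). In WT against KO they were Ifnar1 (-0.21 to 0.063), Ifnar2 (-0.051 to 0.023), Ifngr1 (-0.29 to 0.18), Tyk2 (-0.012 to 0.077), Socs2 (-0.19 to 0.26) and Socs3 (-0.016 to 0.28). In K262Q against KO they were Ifnar1 (-0.13 to 0.14) and Jak1 (-0.078 to 0.055).

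Counts of calls moved more, and the cause was not tested. In K262Q against WT, 1145 genes became 353 with no filter on low genes and 29 to 1597 with 1 library left out (lowest without K262Q replicate 2, highest without KO replicate 2; 718 without KO replicate 1, 49, 44 and 371 without WT replicates 1, 2 and 3, 333 and 41 without K262Q replicates 1 and 3). The 2 members called became 0 with no filter, 1 at a mean of at least 5 FPKM, where Socs1 was not tested, and 0 to 2 with 1 library left out. In WT against KO, 10 genes became 18 with no filter and 9 to 18 with 1 library left out (18 without WT replicate 3). In K262Q against KO, 154 genes became 55 with no filter, 234 with upper-quartile and 297 with TMM scaling, 10 with only the groups compared, 37 with no trend and 13 to 1117 with 1 library left out (1117 without KO replicate 2, 13 to 51 without any other), and members called ranged from 0 to 1.

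Whether replicate numbers pair the libraries was left undecided, because correlations this weak from so few libraries cannot exclude it. Deviations correlated at -0.036 to 0.078 for the same number and -0.074 to 0.051 for others. In 0 of 9 libraries were all same-number correlations above those with other numbers. For WT with K262Q, matching replicates gave 0.078, 0.035 and 0.028, while the rest ran from -0.074 to 0.042. Matching replicates of KO with WT ran from -0.036 to 0.0057, and of KO with K262Q from -0.020 to -0.0086. A fit with the replicate number as a block called 789 genes in K262Q against WT, 6 in WT against KO and 5 in K262Q against KO, and 2, 0 and 0 members in the same order. Socs1, at 161 to 251 implied fragments per library, is the member whose precision depth limits most.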

Other observations

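The spread of the members between libraries of 1 group was set beside the spread that counting alone gives. That counting spread was taken from the implied fragments on the longest transcript of each gene. In some groups they were close, as for Socs2 in WT (SD of 3.68% of the mean beside a counting SD of 3.57%) and Jak1 in KO (1.99% beside 2.03%). For Socs1 the SD within a group was 4.37% of the mean in KO, 6.62% in WT and 3.06% in K262Q, below the counting SD of 7.10%, 7.55% and 6.38%. For Ifngr1 in WT the SD was 37.3% against a counting SD of 5.39%, for Socs2 in KO 33.3% against 3.64%, for Ifngr2 in KO 29.3% against 4.47%, and for Socs3 in WT 23.4% against 5.81%. Jak2 stayed between 1.52% and 3.52% in the 3 groups, beside counting SDs of 2.42% to 2.47%. Ifnar1 varied by 14.7% to 19.2% in each group and Ifnar2, its partner chain, by 3.39% to 8.58%.

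Ifngr1 exceeded Ifngr2 in KO replicate 3 (a ratio of FPKM of 1.82) and in WT replicate 1 (1.71). In the remaining 7 libraries the ratio ran from 0.635 to 0.978.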
